A study of Homo sapiens with 8 samples.

Results

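The untreated breast cancer line HCC1937 was compared with untreated HCC1937 cells that carry exogenous wild-type BRCA1. Of the 8 Affymetrix arrays of the study, 4 make up this comparison: 2 of HCC1937 without COH29, labelled BRCA1 deficient, and 2 of HCC1937+BRCA1 without COH29, labelled WT BRCA1. Members were chosen by the cell line and treatment labels, and all 18417 genes with a probe set of their own were examined. HCC1937 carries a truncated BRCA1 and is described in the series as deficient in DNA repair, and the HCC1937+BRCA1 cells, called the BRCA1 line below, are HCC1937 cells with the wild-type gene added. The other 4 arrays are the same lines with 10 µM COH29, an inhibitor of ribonucleotide reductase, for 24 h. Their levels do not enter the difference described here, although the fit shares their spread and they count in the choice of each gene's probe set. All cells grew in the same serum-containing RPMI medium. No vehicle or time is named for the control arrays. The promoter and vector of the added BRCA1, and whether the BRCA1 line is 1 clone, were not found in the labels. With 1 line of each kind, an effect of BRCA1 and any other difference between the lines cannot be told apart. The labels do not say that the 2 arrays of a line came from separate cultures, so the spread behind each p-value may be technical only, and 2 arrays a line limit the precision of every value.

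BRCA1 is a tumour suppressor that acts with BARD1 in a ubiquitin ligase and with PALB2 in repair of DNA breaks by homologous recombination, and it also takes part in transcription. Breast tumours with BRCA1 mutations are often of the basal-like type, with basal keratins and little oestrogen receptor. HCC1937 is such a line and is widely used as a BRCA1-deficient model, often beside a derivative with the gene restored.

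Values are deposited log2 intensities, so a difference of 1 is 2-fold, and all differences below are the BRCA1 line minus HCC1937. A gene was called at an adjusted p under 0.05 in limma, which was fitted to all 8 arrays and adjusted over all 18417 genes by the method of Benjamini and Hochberg, and every adjusted p below comes from that fit or, where an array is left out, from its refit. The arrays of a line correlated across genes at r from 0.9968 to 0.9974, and arrays of different lines at 0.9695 to 0.9711. The 2 arrays of HCC1937 differed by a median of 0.0888 per gene and those of the BRCA1 line by 0.106, beside a median difference between the lines of 0.174 in size. The median of all signed differences was -0.01. Each SE (after ±) is limma's, from a moderated spread shared by the 4 groups of arrays, while n counts the arrays of a line. It can therefore be smaller than the arrays of the 2 lines alone would give. Single arrays are named as HCC1937 array 1 or 2 and BRCA1-line array 1 or 2.

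The lines differed in 5749 of 18417 genes, or 31.2% (limma). In the BRCA1 line 3016 genes were higher (16.4%) and 2733 lower (14.8%). At least 2-fold differences were found in 487 higher genes (2.64%) and 437 lower genes (2.37%). Differences of 4-fold or more were called for 127 higher and 98 lower genes, and of 16-fold or more for 13 and 9. The 4 arrays of all 5749 called genes did not overlap between the lines, but neither did those of 63.6% of all genes tested. The plot of levels shows most genes close to the line of equal level and a few far from it in both directions.

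**Figure D1:**
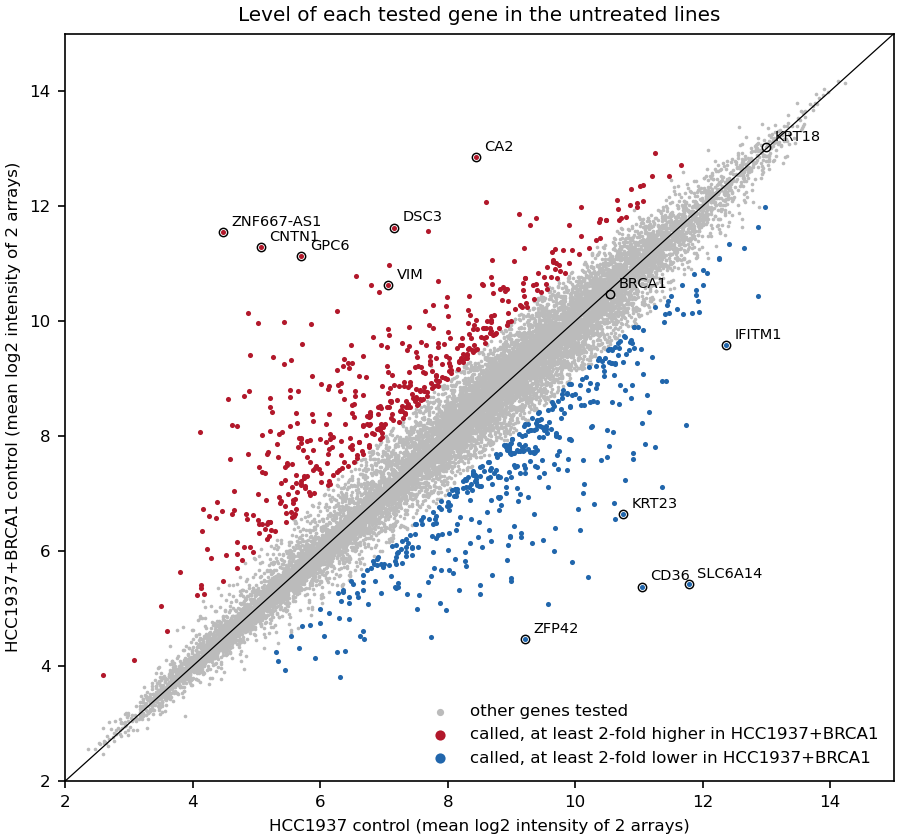
Mean log2 intensity of each of the 18417 tested genes in untreated HCC1937 (horizontal axis, 2 arrays) and in untreated HCC1937+BRCA1 (vertical axis, 2 arrays), with the line of equal level. The 487 called genes at least 2-fold higher are red and the 437 at least 2-fold lower are blue. ZNF667-AS1, CNTN1 and GPC6 lie between 4 and 6 in HCC1937 and above 11 in the BRCA1 line, SLC6A14 and CD36 lie the other way, and BRCA1 and KRT18 lie near the diagonal.

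BRCA1 itself was not called. It was measured at 10.45 and 10.64 in HCC1937 and at 10.50 and 10.43 in the BRCA1 line, with a difference of -0.08 ± 0.10 (SE, n = 2 arrays a line, adjusted p = 0.62). The arrays of the lines overlapped, so this probe set does not show the added gene and does not check the line labels. Which part of the transcript it reads, and whether the added gene holds that part, was not tested.

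Genes that were near the low end of the arrays in one line and well above the middle in the other were the plainest difference. By a rule on percentiles, with both arrays of one line under the 30th percentile of their array's genes and both of the other over the 60th, 49 genes were of this kind. Of these, 28 were high in the BRCA1 line, by 5.6-fold to 134-fold, and 21 were high in HCC1937, by 4.88-fold to 82.1-fold. No detection p was used, so a low percentile is not a measure of absence, and near the low end an array understates a fold change. The promoters of the 2 genes with the largest difference in each direction are shown because these are the genes that changed most, and capitals mark every CG dinucleotide, the site of DNA methylation. The windows are RefSeq's, from 250 bases before to 50 bases after the gene's start in build GRCh38.p14, at chr19:56477624-56477923 on the plus strand for ZNF667-AS1, chr12:40827934-40828233 on the plus strand for CNTN1, chrX:116436356-116436655 on the plus strand for SLC6A14 and chr7:80601957-80602256 on the plus strand for CD36.
ZNF667-AS1: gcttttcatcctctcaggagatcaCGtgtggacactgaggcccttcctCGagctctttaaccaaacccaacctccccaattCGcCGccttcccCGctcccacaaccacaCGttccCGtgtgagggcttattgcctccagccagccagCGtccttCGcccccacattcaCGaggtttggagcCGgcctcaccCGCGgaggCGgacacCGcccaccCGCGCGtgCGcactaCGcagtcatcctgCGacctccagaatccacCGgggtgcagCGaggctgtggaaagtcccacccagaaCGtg
CNTN1: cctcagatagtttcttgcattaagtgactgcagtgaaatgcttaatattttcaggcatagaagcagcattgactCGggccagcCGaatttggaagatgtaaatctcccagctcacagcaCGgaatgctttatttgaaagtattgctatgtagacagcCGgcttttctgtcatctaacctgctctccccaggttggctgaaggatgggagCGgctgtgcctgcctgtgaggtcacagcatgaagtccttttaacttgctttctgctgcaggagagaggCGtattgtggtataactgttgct
SLC6A14: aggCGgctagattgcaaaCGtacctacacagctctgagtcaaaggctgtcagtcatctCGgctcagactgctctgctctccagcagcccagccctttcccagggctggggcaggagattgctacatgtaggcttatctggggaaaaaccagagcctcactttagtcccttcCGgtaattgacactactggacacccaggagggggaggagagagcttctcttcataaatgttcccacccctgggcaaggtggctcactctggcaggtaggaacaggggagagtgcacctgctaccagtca
CD36: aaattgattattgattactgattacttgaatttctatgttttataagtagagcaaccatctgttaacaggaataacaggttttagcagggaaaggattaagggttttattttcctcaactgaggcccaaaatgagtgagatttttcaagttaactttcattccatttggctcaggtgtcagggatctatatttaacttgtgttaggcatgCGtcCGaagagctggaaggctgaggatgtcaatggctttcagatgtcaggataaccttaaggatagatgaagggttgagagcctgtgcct
ZNF667-AS1 has 24 CG sites in this window and 63.3% G and C, CNTN1 has 6 and 47%, SLC6A14 has 4 and 55.7%, and CD36 has 2 and 38.7%. A window was counted as CpG-rich when it held more G and C than A and T and its CG sites (the same on both strands) came to over 0.6 of the number its base composition gives. That held for 65.2% of the 14237 genes with an entry, for 13 of the 24 entries of genes high in the BRCA1 line and low in HCC1937 (54.2%), and for 9 of 16 of the opposite kind (56.2%). Methylation was not measured.

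ZNF667-AS1, a long noncoding RNA next to the zinc finger gene ZNF667, was at 4.83 and 4.12 in HCC1937 and at 11.57 and 11.51 in the BRCA1 line. Its difference of 7.07 ± 0.27 (SE, n = 2 arrays a line) was the largest of all (adjusted p = 2.49e-07), and ZNF667 was also higher, by 2.22. CNTN1, a neuronal adhesion molecule of the immunoglobulin family, was at 5.43 and 4.71 in HCC1937 and at 11.28 and 11.29 in the BRCA1 line, a difference of 6.22 ± 0.21 (adjusted p = 1.38e-07). Both genes were among the low signals of HCC1937 and among the high signals of the BRCA1 line. GPC6, a heparan sulphate proteoglycan of the cell surface, went from 5.76 and 5.65 to 11.12 and 11.14, and ADGRL2, an adhesion G protein-coupled receptor, from 4.79 and 4.93 to 10.16 and 10.12. TDRD12, which acts in the piRNA pathway of germ cells, was higher by 4.95 and the cadherin CDH19 by 4.51. Carbonic anhydrase CA2 was not low to begin with. It went from 8.57 and 8.30 to 12.84 and 12.87, which placed it among the strongest signals of the BRCA1 line. The oncofetal RNA-binding protein gene IGF2BP3, the tropomyosin gene TPM2, the neprilysin gene MME and the membrane metalloproteinase gene MMP16 were higher by 3.91, 4.23, 3.87 and 3.89.

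SLC6A14, an amino acid transporter, showed the largest loss. It was at 11.78 and 11.80 in HCC1937 and at 5.72 and 5.13 in the BRCA1 line, a difference of -6.36 ± 0.16 (SE, n = 2 arrays a line, adjusted p = 3.3e-08). CD36, a receptor for fatty acids and thrombospondin, went from 10.98 and 11.12 to 5.51 and 5.24. ZFP42 (REX1), known as a marker of pluripotent cells, went from 9.23 and 9.21 to 4.14 and 4.78. The arrays of the lines lay far apart in each. SERPINB9, an inhibitor of granzyme B, differed by -4.65, the actin-bundling gene LCP1 by -4.15, the keratin gene KRT23 by -4.11 and the mucin gene MUC4 by -4.07. MUC4 was also the member of this group with the widest spread, at 10.21 and 11.04 in HCC1937. Among the other large falls, the chemokine gene CCL28 differed by -3.54, CEACAM6 by -3.49 and BPIFB1 by -3.45. The folate receptor gene FOLR1 differed by -3.31 and the mitochondrial co-chaperone gene DNAJC15 by -3.32.

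**Figure D2:**
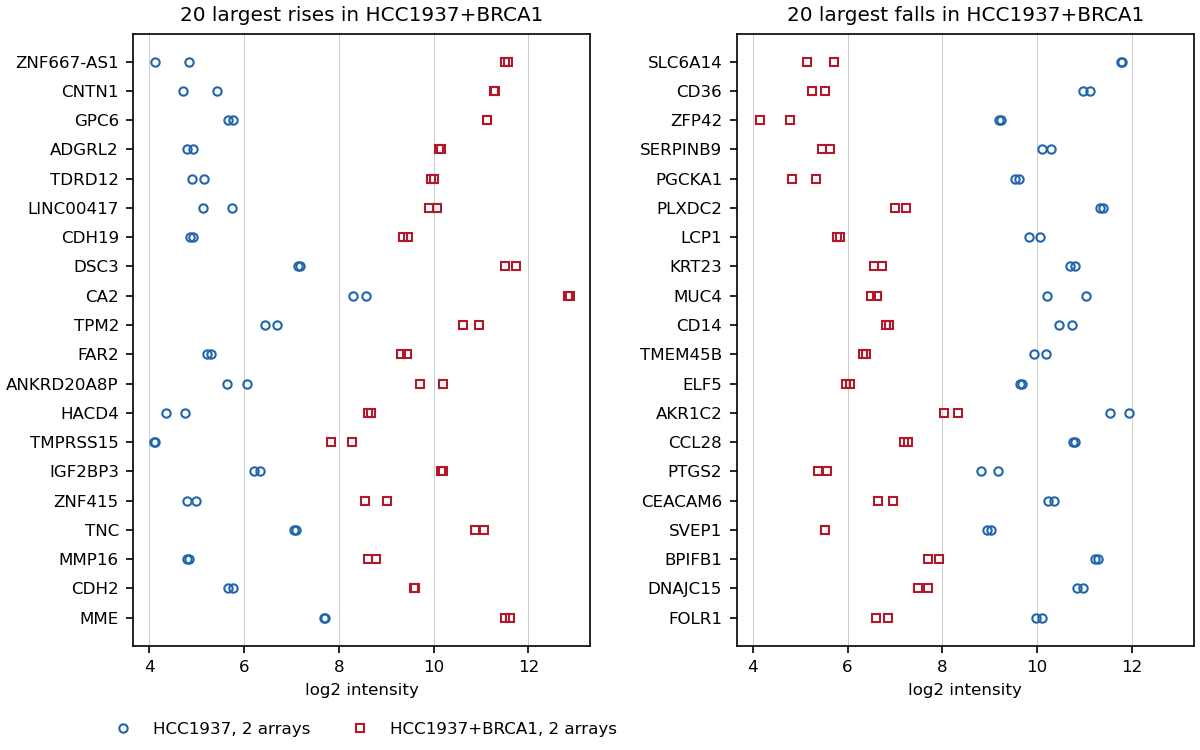
Log2 intensity (horizontal axes) on each control array for the 20 called genes with the largest rise (left) and the 20 with the largest fall (right) in HCC1937+BRCA1, with circles for the 2 arrays of HCC1937 and squares for the 2 arrays of HCC1937+BRCA1. The arrays of the lines do not overlap in any of the 40 genes, because the rule that chose them required it. The replicate spread is wide for MUC4 (10.21 and 11.04) and ZNF667-AS1 (4.83 and 4.12) in HCC1937.

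Gene lists were then read against the shares of all genes tested, 16.4% higher and 14.8% lower, as the plot of the lists shows. Members were counted as called over all genes. Of 308 genes named here or by the naming rule, 272 were called, and 14 of these lost the call when 1 array was left out, none with a difference above 0.67 in size. Lists are described by counts and medians only, with no test of the list. Leaving out 1 array changes some counts by more than 1.5 times, and those arrays are named beside the counts.

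**Figure D3:**
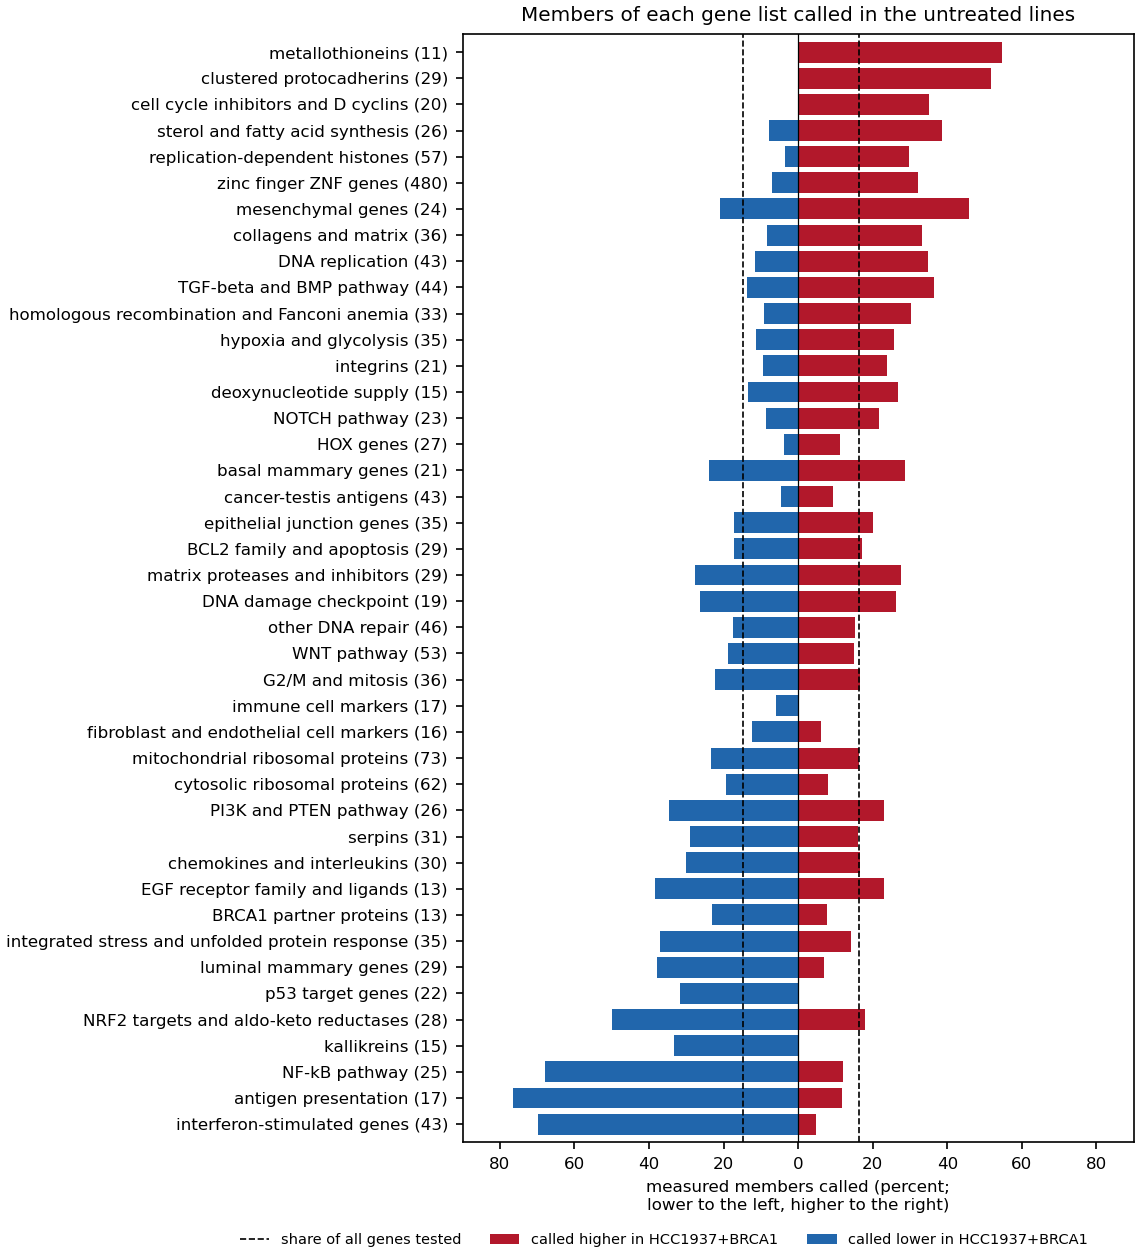
Share of the measured members of each of 42 gene lists (number in brackets) that were called higher (red, to the right) or lower (blue, to the left) in untreated HCC1937+BRCA1. Dashed lines mark the shares over all 18417 genes, 16.4% higher and 14.8% lower. Interferon-stimulated, antigen presentation and NF-kB genes reach farthest to the left, and metallothioneins and clustered protocadherins farthest to the right.

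Interferon-stimulated genes were mostly lower in the BRCA1 line. Of 43 measured members 30 were lower (69.8%) and 2 higher, with 18 at least 2-fold lower and a list median of -0.80, beside -0.01 over all genes. Interferons act through JAK kinases and the STAT and IRF factors, which switch on a set of antiviral genes. MX2, an antiviral GTPase, was at 8.66 and 8.74 in HCC1937 and at 5.62 and 5.54 in the BRCA1 line, a difference of -3.12 ± 0.09 (SE, n = 2 arrays a line, adjusted p = 6.2e-08). IFITM1, a membrane protein that blocks virus entry, was at 12.29 and 12.45 against 9.61 and 9.56. The levels of both were tight within a line and far apart between the lines. Among the oligoadenylate synthetases, sensors that activate RNase L, the differences were -1.99 for OAS2, -1.27 for OAS1 and -1.22 for OAS3. RSAD2 (viperin) differed by -1.95, TRIM22 by -1.67, IFI27 by -2.27 and the transcription factor gene IRF1 by -1.07. In a bulk culture, fewer cells of a kind and less RNA per cell cannot be told apart.

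Several regulators and well-known targets of the same pathway were not called. IRF7 was at -0.07 (adjusted p = 0.745), IRF9 at -0.29 (0.0524), ISG15 at -0.27 (0.0777), and the RNA sensor genes RIGI and IFIH1 at -0.09 (0.481) and -0.21 (0.18). GBP3 and SAMD9 were the 2 members that rose, by 0.53 and 0.32, and SAMD9 lost its call without BRCA1-line array 1 (adjusted p = 0.141) or HCC1937 array 2 (0.188). IRF9 gained one, at an adjusted p of 0.0497, without either COH29 array of the BRCA1 line. IFITM1, IFITM2 (-1.78) and IFITM3 (-1.57) are paralogs so alike that their probe sets may read each other's transcripts. Some members lie on chromosomes whose genes were often lower in this comparison (5, 10 and 13, described below): IFIT1, IFIT2, IFIT3 and IFIT5 are on chromosome 10 and EPSTI1 (-2.47) is on 13. Without the members on these 3 chromosomes, a split chosen after the values were seen, 24 of 37 were lower with a median of -0.62. IRF1 is also on chromosome 5, and what the chromosomes contribute was not tested.

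Antigen presentation genes were lower too, 13 of 17 (76.5%), with 2 higher and a median of -0.57. The peptide transporter gene TAP1 was at 10.74 and 10.61 in HCC1937 and at 9.62 and 9.62 in the BRCA1 line, a difference of -1.06 ± 0.09 (adjusted p = 2.88e-05). The immunoproteasome genes PSMB9 and PSMB8 differed by -1.20 and -0.68 and the peptide-trimming gene ERAP1 by -1.37. NLRC5, the activator of class I genes, fell by 0.68 on the log2 scale. Of the class II genes, HLA-DPA1 went from 8.53 and 8.44 to 6.44 and 6.57, while HLA-DPB1 was at -0.29 (adjusted p = 0.0959) and the class II activator CIITA at -0.32 (0.0543). The 2 members that rose were the checkpoint ligand genes CD274 (PD-L1), by 1.28, and PDCD1LG2 (PD-L2), by 0.67. They are neighbours on chromosome 9 in a stretch of genes that were higher together (below). PDCD1LG2 lost its call without BRCA1-line array 1 (adjusted p = 0.0556) or HCC1937 array 2 (0.0555), and CIITA gained one without BRCA1-line array 2 (0.0198).

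NF-kB genes followed the same direction, with 17 of 25 lower (68%), 3 higher and a median of -0.39. NF-kB factors are held by IkB proteins in the cytoplasm and drive inflammatory genes when released. The inflammatory enzyme gene PTGS2 (COX-2) went from 9.17 and 8.82 in HCC1937 to 5.56 and 5.38 in the BRCA1 line. Its difference of -3.53 ± 0.16 was the largest of the list (adjusted p = 7.22e-07). The adhesion receptor gene ICAM1 fell by 1.39 on the log2 scale. Inhibitors of the pathway, which are also its targets, fell as well, with differences of -0.73 for NFKBIA and -0.71 for TNFAIP3 (A20). NFKBIZ, another member of the list, differed by -1.41. Of the NF-kB subunits, NFKB2 and NFKB1 differed by -0.61 and -0.31, while RELA was at 0.24 (adjusted p = 0.0962), RELB at -0.28 (0.0599) and REL at 0.02 (0.902). The 17 became 10 without BRCA1-line array 1 and 11 without HCC1937 array 1. NFKB1 lost its call without any 1 control array, with adjusted p from 0.0523 to 0.102. Of the 3 higher (IKBKG, BCL3 and BIRC2), BCL3 and BIRC2 lost theirs without HCC1937 array 1 or 2, with adjusted p from 0.0584 to 0.101, and also without BRCA1-line array 2 (BCL3, 0.121) or 1 (BIRC2, 0.108).

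Secreted inflammatory factors were mixed. Of 30 chemokine and interleukin genes 9 were lower and 5 higher. CCL28, CCL20 (-1.41), CCL5 (-1.33), CSF1 (-1.33) and LIF (-1.24) were the members at least 2-fold lower. CXCL10, a chemokine known as an interferon target, rose by 1.11, and CXCL1, an attractant of neutrophils, by 0.91. CXCL8 fell by 0.73 on the log2 scale. Without HCC1937 array 2 the 5 became 3.

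Markers of other cell types were mostly low in both lines. Of 17 immune cell markers 1 was called, CD14, the co-receptor for bacterial lipopolysaccharide, at 10.47 and 10.74 in HCC1937 and at 6.81 and 6.87 in the BRCA1 line. The pan-leukocyte marker PTPRC (CD45) was between percentile 2.67 and 4.39 of the genes on all 4 arrays. The summed log2 level of the 17 markers was 108.16 to 108.65 in HCC1937 and 103.25 to 104.87 in the BRCA1 line, so the difference of CD14 alone, -3.77, comes close to that gap. CD68 lay between percentile 86.9 and 88.5 on all 4 arrays and was not called. Of 16 fibroblast, endothelial and fat cell markers FAP rose by 1.82 and CDH5 and PECAM1 differed by -1.34 and -1.19, with summed levels of 98.51 to 98.91 and 97.68 to 98.82. The endothelial genes KDR, VWF, TEK and EMCN lay under percentile 21 on all 4 arrays, and TIE1 between 25.6 and 28.9. Other endothelial genes were not low. PECAM1 lay at percentiles 69.4 and 71.8 in HCC1937 and at 52.1 and 52.9 in the BRCA1 line. CDH5 lay at 61.8 and 63.1 against 42.1 and 43.9, and CLDN5 between 48.0 and 49.5 on all 4 arrays. Leaving out BRCA1-line array 1 gave 2 higher of the 16, with FABP4 as the second (adjusted p = 0.0145).

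The labelled cell type was checked on epithelial and mammary markers. KRT18 and KRT8, keratins of simple epithelium, were at 12.96 to 13.08 and 13.13 to 13.31 on the 4 arrays. EPCAM was between percentile 97.8 and 98.3, and the E-cadherin gene CDH1 was at 12.03 and 12.08 in HCC1937 and at 12.27 and 12.20 in the BRCA1 line. None of these 4 passed the test (adjusted p = 0.126 to 0.868). The oestrogen receptor gene ESR1 was at 8.09 to 8.32 and ERBB2 at 9.59 to 9.71, and neither was called (adjusted p = 0.233 and 0.963). ESR1 lay above the median gene mean of the control arrays, 7.94, so its level does not show little oestrogen receptor. EGFR rose by 0.51 ± 0.08 (adjusted p = 0.00113).

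Mesenchymal genes were more often higher, while the epithelial markers above were not called. In development and in many carcinomas, ZEB, SNAI and TWIST factors repress E-cadherin and accompany vimentin and N-cadherin. Of 24 measured mesenchymal genes 11 were higher (45.8%) and 5 lower, with 8 at least 2-fold higher and a median of 0.29. The vimentin gene VIM was at 7.13 and 7.01 in HCC1937 and at 10.70 and 10.56 in the BRCA1 line, a difference of 3.56 ± 0.09 (SE, n = 2 arrays a line, adjusted p = 3.3e-08). The N-cadherin gene CDH2 went from 5.77 and 5.66 to 9.59 and 9.61, and the matrix gene TNC (tenascin C) from 7.10 and 7.06 to 11.06 and 10.88. In all 3 the gap between the lines was far wider than that between the arrays of a line. TGFBI, a matrix protein induced by TGF-beta, rose by 2.76, CDH11 by 1.49, ITGA5 by 1.31 and MSN by 1.02.

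The transcription factors of the list did not share one direction. ZEB1 rose by 1.11 and TWIST1 by 0.84, SNAI2 fell by 1.38 on the log2 scale, and SNAI1 was at 0.23 (adjusted p = 0.147) and ZEB2 at 0.35 (0.108). SNAI1 was called without BRCA1-line array 1 (0.0298) and ZEB2 without HCC1937 array 1 (0.026). FN1, another classical mesenchymal gene, was at 0.11 (adjusted p = 0.51). PLAU, which encodes urokinase, fell by 1.59 on the log2 scale, and S100A4 differed by -0.66. Without BRCA1-line array 2 the 5 lower became 3.

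Luminal mammary genes were more often lower, 11 of 29 (37.9%), with 2 higher and a median of -0.20. ELF5, a transcription factor of luminal progenitors and milk-secreting cells, was at 9.68 and 9.64 in HCC1937 and at 5.96 and 6.06 in the BRCA1 line, a difference of -3.66 ± 0.10 (adjusted p = 4.56e-08). SPDEF went from 9.66 and 9.68 to 7.37 and 7.66, and AGR2, a secretory-pathway protein, fell by 1.65 on the log2 scale. The luminal factor gene GATA3 differed by -0.74 and KRT19 by -0.82. PRLR, the prolactin receptor, went the other way and rose by 1.96, from 5.36 and 5.75 to 7.61 and 7.42. The 11 became 7 without BRCA1-line array 1 or HCC1937 array 2, and KRT7, the other member that rose, lost its call without either BRCA1-line array, HCC1937 array 2 or either COH29 array of the BRCA1 line, with adjusted p from 0.0508 to 0.262.

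Basal mammary genes moved both ways, with 6 higher and 5 lower of the 21 measured, out of 30 listed. The basal keratin gene KRT5 was at 11.04 and 10.91 in HCC1937 and at 9.21 and 9.34 in the BRCA1 line, a difference of -1.70 ± 0.10 (adjusted p = 2.57e-06), while its usual partner KRT14 was at -0.15 (adjusted p = 0.33). CRYAB, a small heat shock protein, fell by 1.16 on the log2 scale. The desmosomal cadherin DSC3 rose from 7.14 and 7.18 to 11.74 and 11.51, DSG3 from 8.69 and 8.68 to 10.80 and 10.73, and KRT15 by 1.06. Of 35 epithelial junction genes 7 were higher (20%) and 6 lower (17.1%), near the shares of all genes. DSC2, PKP1 and DSG2 rose by 1.90, 1.58 and 0.86, and CLDN3 and TJP3 differed by -0.91 and -0.69. DSC2, DSC3, DSG2 and DSG3 lie on chromosome 18, as do CDH2 and CDH19, and outside chromosomes 7 and 18 (described below), 2 of 17 basal genes were higher. Without BRCA1-line array 1 or either HCC1937 array the 7 became 4, and without any 1 of the 4 control arrays the 6 became 3.

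Of 36 collagen and matrix genes 12 were higher and 3 lower, with FBN1 (fibrillin) up by 1.68, LAMB1 by 1.22 and NID1 by 1.12, and COL5A2 and COL12A1 at -2.25 and -1.23. Of 21 integrin genes 5 were higher (23.8%) and 2 lower, with a median of -0.02. ITGB6, a subunit of a TGF-beta activating integrin, went from 9.34 and 9.42 to 11.89 and 11.69. Of 29 matrix proteases and inhibitors 8 were higher and 8 lower. MMP14, which activates other metalloproteinases, went from 7.19 and 7.02 to 8.66 and 8.54. The tissue plasminogen activator gene PLAT fell by 1.56 on the log2 scale and the cathepsin gene CTSB differed by -1.07. Without BRCA1-line array 2 or HCC1937 array 2 the 8 higher became 5.

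Kallikrein proteases, encoded side by side on chromosome 19, were lower where they were called, 5 of 15 with 0 higher. KLK8 went from 9.82 and 10.01 to 7.97 and 7.92, and KLK5, KLK7 and KLK9 differed by -1.22, -1.02 and -1.38. Of 31 serpins, mostly inhibitors of proteases, 9 were lower and 5 higher. SERPINB9 and SERPINB3 (-3.26) had the largest falls, and SERPINE2 rose from 6.24 and 5.77 to 9.02 and 8.79.

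Detoxification genes driven by the factor NRF2 were often lower. Of 28 members 14 were lower and 5 higher, with a median of -0.23. The aldo-keto reductase genes, whose products reduce steroids and aldehydes, changed most. AKR1C2 was at 11.55 and 11.94 in HCC1937 and at 8.04 and 8.33 in the BRCA1 line, a difference of -3.56 ± 0.21 (adjusted p = 3.82e-06). AKR1C1 and AKR1C3 differed by -3.23 and -1.54. These 3 are near-identical neighbours on chromosome 10 and their probe sets may share signal. ALDH3A1 differed by -1.90, the glutathione peroxidase gene GPX2 by -1.77 and GCLC, which limits glutathione synthesis, by -0.90. Other standard NRF2 targets were not lower: TXNRD1 rose by 0.81, HMOX1 by 0.52, and GCLM and SRXN1 were at 0.03 (adjusted p = 0.866) and 0.18 (0.167). NFE2L2, which encodes NRF2, was at 0.21 (adjusted p = 0.139), and its inhibitor KEAP1 at -0.20 (0.127). The 14 became 9 without HCC1937 array 2, and the 5 became 3 without BRCA1-line array 2 or HCC1937 array 1.

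Stress and p53 genes were also more often lower. Of 35 genes of the integrated stress and unfolded protein responses 13 were lower and 5 higher. STC2, a secreted glycoprotein, was at 8.81 and 8.76 in HCC1937 and at 7.28 and 7.28 in the BRCA1 line, and TRIB3 and the arginine transporter gene SLC7A1 differed by -1.24 and -1.27. Without HCC1937 array 2 the 5 became 2. Of 22 p53 target genes 7 were lower and 0 higher. PLK2, a polo-like kinase, went from 11.86 and 11.92 to 10.63 and 10.44, and the sestrin genes SESN1 and SESN2 differed by -0.54 and -0.46. Without BRCA1-line array 1 or HCC1937 array 1 the 7 became 4.

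Genes that work with BRCA1 in repair showed small differences. Of 13 partner proteins of BRCA1, RAD50 (-0.46), PALB2 and BARD1 were lower and TOPBP1 was higher. PALB2, which links BRCA1 to BRCA2, was at 10.42 and 10.46 in HCC1937 and at 10.10 and 9.99 in the BRCA1 line, a difference of -0.40 ± 0.09 (adjusted p = 0.00785). BARD1, the partner in the ubiquitin ligase, was at 9.32 and 9.42 against 9.07 and 9.04, a difference of -0.31 ± 0.09 (adjusted p = 0.0263). Leaving out any 1 control array ended the call of BARD1, with adjusted p from 0.062 to 0.162. PALB2 lost its call without BRCA1-line array 2 (adjusted p = 0.0578) or HCC1937 array 2 (0.0573). TOPBP1, at 0.29, lost its call without BRCA1-line array 1 (0.169), HCC1937 array 1 (0.166) or HCC1937 array 2 (0.0745). The 3 lower partners became 1 without BRCA1-line array 2 or HCC1937 array 2. MRE11, NBN and BRIP1 were at -0.12, 0.03 and -0.01 (adjusted p = 0.369, 0.834 and 0.974).

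In homologous recombination and the Fanconi anemia pathway 10 of 33 genes were higher (30.3%) and 3 lower, with a median of 0.01. DMC1, the meiotic recombinase, went from 7.05 and 7.11 to 8.54 and 8.47 and was the member with the largest difference, 1.42 ± 0.09 (adjusted p = 4.72e-06). RAD54L, FANCI, FANCG and XRCC2 rose by 0.75, 0.71, 0.58 and 0.57, and DNA2 and RAD51B differed by -0.72 and -0.52. RAD51C, BLM and EXO1 were at -0.15, -0.17 and -0.14 (adjusted p = 0.213, 0.167 and 0.228). Among 46 genes of other repair pathways 7 were higher (15.2%) and 8 lower (17.4%), near the shares of all genes. The nucleotide excision repair gene ERCC1 and the mismatch repair gene PMS1 rose by 0.81 and 0.66, and ERCC8 and MSH3, both on chromosome 5, differed by -0.98 and -0.90. The 7 became 4 without any 1 of the 4 control arrays. The 19 damage checkpoint genes had 5 higher and 5 lower. CLSPN and CHEK1 rose by 0.83 and 0.57, and H2AX fell by 0.61 on the log2 scale. The 5 higher became 3 without BRCA1-line array 1 or either HCC1937 array.

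DNA replication genes were more often higher, 15 of 43 (34.9%) against 5 lower, with a median of 0.13. The origin licensing genes ORC1 and CDT1 led. ORC1 was at 8.44 and 8.23 in HCC1937 and at 9.75 and 9.80 in the BRCA1 line, a difference of 1.44 ± 0.10 (adjusted p = 6.96e-06), and CDT1 rose by 0.93. The helicase genes GINS2, MCM7 and MCM5 rose by 0.73, 0.65 and 0.40, while the clamp loader gene RFC3 fell by 0.85 on the log2 scale. The 15 became 8 without BRCA1-line array 1 or either HCC1937 array. The 5 became 3 without HCC1937 array 1 or any 1 COH29 array, and 1 without BRCA1-line array 2 or HCC1937 array 2.

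Of 15 genes of deoxynucleotide supply 4 were higher and 2 lower. The thymidylate kinase gene DTYMK went from 8.80 and 8.71 to 9.75 and 9.84. The ribonucleotide reductase subunit genes RRM2 and RRM2B moved apart: RRM2 rose by 0.57 ± 0.09 (adjusted p = 0.00153) and RRM2B, the p53-inducible form, fell by 0.81 on the log2 scale (adjusted p = 8.81e-05). The 4 became 2 without BRCA1-line array 1 or either HCC1937 array, and the 2 became 1 without any 1 control array. Genes of G2/M and mitosis split, with 6 of 36 higher (16.7%) and 8 lower (22.2%), beside 16.4% and 14.8% over all genes. PLK1, CCNB1 and KIF20A differed by -0.74, -0.49 and -0.53, and CDCA8 rose by 0.59. Outside chromosomes 5, 10 and 13, 2 of 28 were lower. Without BRCA1-line array 1 or either HCC1937 array the 6 became 3, and without BRCA1-line array 2 or either HCC1937 array the 8 became 5. Of 20 cell cycle inhibitors and D cyclin genes with their kinases 7 were higher and 0 lower, and 4 were higher without BRCA1-line array 1 or HCC1937 array 2. CDK6, CDKN2B (p15) and CDKN2A (p16 and ARF) rose by 0.92, 0.73 and 0.65. CDK6 lies in a stretch of chromosome 7 where 14 of 17 genes were higher.

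In the TGF-beta and BMP pathway 16 of 44 genes were higher (36.4%) and 6 lower, with a median of 0.25. The activin subunit gene INHBA went from 7.12 and 6.97 to 9.22 and 9.23, and the receptor genes BMPR1B and BMPR2 rose by 1.84 and 1.06. SMAD2 and SMAD4 rose by 0.64 each, and the inhibitors SMAD6 and SMAD7 rose by 0.76 and 0.57. BMP7 and the receptor gene TGFBR1 differed by -1.56 and -0.91. SMAD2, SMAD4, SMAD7, INHBA and SMURF1 (0.76) are on chromosomes 18 and 7, and SMAD2 lost its call without BRCA1-line array 1 (adjusted p = 0.0905) or HCC1937 array 1 (0.0727). Outside these 2 chromosomes 11 of 39 members were higher with a median of 0.13.

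Among 13 genes of the EGF receptor family and its ligands 3 were higher and 5 lower. NRG4 went from 6.68 and 6.65 to 9.50 and 9.29, whereas HBEGF went from 10.45 and 10.09 to 8.02 and 8.34 and NRG1 fell by 1.10 on the log2 scale. The 5 became 3 without BRCA1-line array 1 or either HCC1937 array. In the WNT pathway 8 of 53 were higher (15.1%) and 10 lower (18.9%), near the shares of all genes. WNT5A and WNT7A differed by -2.11 and -1.64 and the inhibitor DKK1 rose by 0.91. In the NOTCH pathway 5 of 23 were higher and 2 lower, none by 2-fold, with a median of -0.07. NOTCH2 and NOTCH3 rose by 0.83 and 0.70 and NOTCH1 fell by 0.54 on the log2 scale. The 5 became 3 without HCC1937 array 2, and the 2 became 1 without BRCA1-line array 2 or HCC1937 array 1.

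Of 26 sterol and fatty acid synthesis genes 10 were higher (38.5%) and 2 lower. CYP51A1, MSMO1 and PMVK rose by 0.93, 0.82 and 0.80, whereas HMGCS1, an early enzyme of the same route, fell by 0.89 on the log2 scale. Of 35 hypoxia and glycolysis genes 9 were higher and 4 lower, with NDRG1 and BNIP3 up by 1.28 and 0.90 and the carbonic anhydrase gene CA12 at -2.29. Among 11 metallothionein and zinc export genes 6 were higher and 0 lower, with a median of 0.52. MT2A, the main human metallothionein, went from 12.19 and 11.98 to 12.86 and 13.11, and MT1X rose by 0.95. These genes are close paralogs and may not be separate measurements.

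Of 29 apoptosis genes 5 were higher and 5 lower (17.2% each), near the shares of all genes. The death ligand gene TNFSF10 (TRAIL) and CASP10 differed by -1.17 and -1.32, while CASP8 and its inhibitor CFLAR rose by 0.69 and 0.72. CFLAR, CASP10 and CASP8 are neighbours on chromosome 2, in a stretch where 16 of 19 genes were higher and 1, CASP10, was lower. In the PI3K pathway 6 of 26 were higher and 9 lower, with PIK3R1, the regulatory subunit gene, at 9.50 and 9.41 against 8.24 and 8.12. The 6 became 3 without BRCA1-line array 1 or HCC1937 array 2.

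Cytosolic ribosomal protein genes had 5 of 62 higher and 12 lower, with RPL39L at 1.78 and RPS23 at -1.38. The 12 became 7 without BRCA1-line array 1 or HCC1937 array 1 and 5 without HCC1937 array 2. Mitochondrial ribosomal protein genes had 12 of 73 higher and 17 lower, and 10 lower without any 1 control array. MRPS31, MRPS27 and MRPS16, with differences of -1.14, -1.08 and -0.91, are on chromosomes 13, 5 and 10. HOX genes had 3 of 27 higher and 1 lower, with HOXC10 up by 0.95. Names matched as cancer-testis antigens had 4 of 43 higher, all under 2-fold, and 2 lower. They became 2 and 0 without HCC1937 array 1, and the 2 became 1 without HCC1937 array 2. SSX2IP, 1 of the 4, is matched by its name and is not such an antigen.

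Zinc finger genes with a ZNF name, most of them repressors with a KRAB domain, were higher in 154 of 480 (32.1%) and lower in 34, with 40 at least 2-fold higher and 3 at least 2-fold lower. On chromosome 19, where many of them are neighbours, 90 of 233 were higher and 6 lower, with a median of 0.23. On the other chromosomes 64 of 247 were higher and 28 lower, with a median of 0.07. ZNF415 was at 4.97 and 4.79 in HCC1937 and at 9.02 and 8.55 in the BRCA1 line, a difference of 3.91 ± 0.17 (adjusted p = 4.47e-07). ZNF649, ZNF542P and ZNF577 rose by 3.29, 3.13 and 2.68. ZNF genes resemble each other, and probe sets may share signal. Without HCC1937 array 1 the 34 became 18. CpG-rich promoters were held by 24 of 30 ZNF genes that were at least 2-fold higher and had an entry, close to the 79.4% of all ZNF genes with one.

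Clustered protocadherins, neuronal adhesion proteins encoded in 3 adjoining clusters on chromosome 5, were higher in 15 of 29 (51.7%) and lower in 0. The higher members lay mostly in the beta cluster, with 14 of 16 higher and a median of 1.22, while 0 of 12 in the alpha cluster were called higher (median 0.04). The difference between the clusters was not tested. PCDHB4 went from 3.83 and 3.78 to 5.53 and 5.75, and PCDHB16 from 7.20 and 7.04 to 8.72 and 8.46. PCDHB4 thus stayed at the low end of the arrays in both lines, and the 15 became 8 when genes under the 30th percentile were left out. Replication-dependent histone genes were higher in 17 of 57 and lower in 2, with 7 at least 2-fold higher. H2BC21, H2BC12, H4C8 and H3C8 rose by 1.87, 1.67, 1.42 and 1.40. H2BC21 lies in a stretch of chromosome 1 where 14 of 17 genes were higher. H4C14 and H4C15 had the same values on every array, so that they are 1 measurement although the counts take them as separate genes. The 2 became 0 without HCC1937 array 2 and 1 without any other control array.

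The shares differed between chromosomes. On chromosome 13, 43.5% of 317 genes were lower and 4.73% higher, and on chromosome 10, 43.2% of 679 were lower and 6.04% higher. Chromosome 5 had 35.9% lower and 11.5% higher. The opposite held on chromosome 18, with 33.7% higher and 5.68% lower of 264 genes, and on chromosome 7, with 33.1% and 4.8% of 833. Chromosomes 4, 2 and 1 had 25.1%, 24% and 22.6% higher. These shares stand beside 16.4% higher and 14.8% lower over all genes. Among genes with a mean level over the median of all genes, 71.9% of 139 on chromosome 13 and 66.3% of 335 on chromosome 10 were lower, with median differences of -0.55 and -0.46, while 53.4% of 421 on chromosome 7 were higher with a median of 0.32. Of all 9204 placed genes over that level, 23.4% were higher and 20.9% lower. Copy number was not measured.

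**Figure D4:**
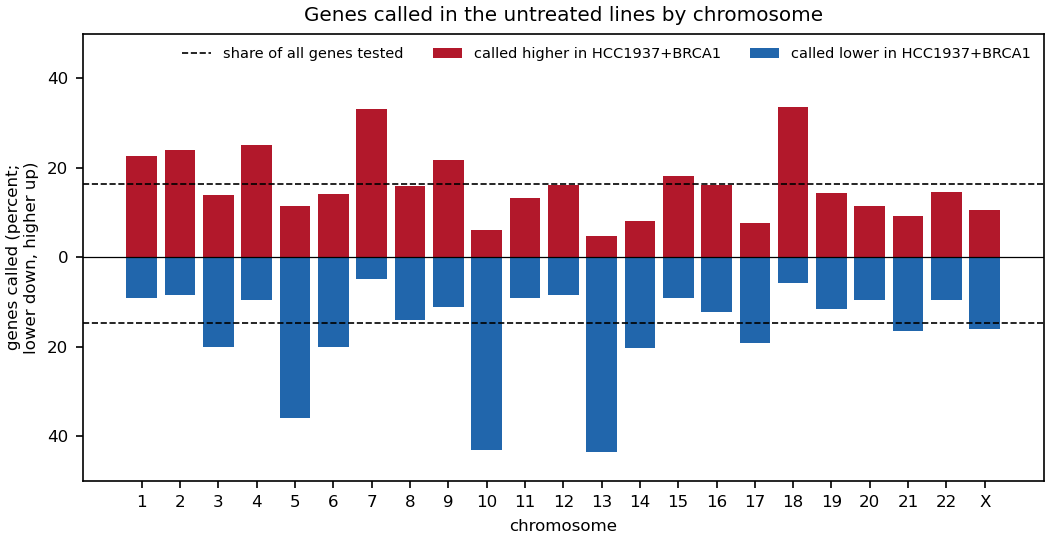
Share of the tested genes of each chromosome (horizontal axis) called higher (red, upward) or lower (blue, downward) in untreated HCC1937+BRCA1, in percent of its genes. Dashed lines mark the shares over all 18417 genes, 16.4% and 14.8%. Chromosomes 13, 10 and 5 have the longest blue bars (43.5%, 43.2% and 35.9%) and chromosomes 18 and 7 the longest red bars (33.7% and 33.1%).

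Neighbouring genes also moved together over shorter stretches. Stretches were found by a descriptive rule: along RefSeq's gene order, windows of 15 tested neighbours with at least 12 called in 1 direction were joined. A high share of called genes within a stretch therefore follows from the rule. How many stretches the share of a whole chromosome would give by itself was not tested. There were 25 such stretches with 489 genes, of which 10 were higher in the BRCA1 line and 15 lower. Chromosome 10 alone held 7 of them, with 124 of 160 genes lower. In 1 of these, from SGPL1 to KAT6B, 31 of 40 genes were lower, among them PLAU and DDIT4. On chromosome 13, 21 of 26 genes from TRPC4 to DNAJC15 were lower with a median of -0.96, and EPSTI1 and DNAJC15, next to each other at its end, had the largest differences, -2.47 and -3.32.

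Among the stretches that were higher, 29 of 36 genes from ZNF577 to ZNF677 on chromosome 19 rose with a median of 0.67, and nearly all of them are zinc finger genes. Around CD274 on chromosome 9, 12 of 15 genes rose, among them PDCD1LG2 and the glycine cleavage gene GLDC (1.67). From MTERF4 to ING5 on chromosome 2, 12 of 13 rose with a median of 1.01, among them DTYMK, and HDLBP rose by 1.43. On chromosome 15, PWAR6 and 19 of 20 SNORD116 small nucleolar RNA genes rose with a median of 1.52. That region is imprinted and SNORD116 genes are repeated copies of one another, so they are not separate measurements.

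The genes next to BRCA1 on chromosome 17 were mostly lower. Of the 15 tested genes on each side, 18 of 30 were lower and 1 higher, with a median of -0.32, beside 19.2% lower over all of chromosome 17. IFI35, an interferon-stimulated gene, went from 11.08 and 11.04 to 9.78 and 9.93, and ETV4, an ETS transcription factor gene, from 9.03 and 8.87 to 7.81 and 7.81. NBR2, which shares a promoter region with BRCA1, went from 9.44 and 9.57 to 8.79 and 8.72, and NBR1 from 10.63 and 10.49 to 9.59 and 9.75. TMEM106A, the 1 higher gene, went from 7.93 and 7.87 to 8.38 and 8.51. BRCA1 thus lay among genes that were mostly lower, while BRCA1 itself was not called.

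The 4 arrays with COH29 gave the line difference a second time, under the drug, in samples whose levels do not enter the baseline difference. With COH29 the lines differed in 31.6% of all genes. Of the 5749 genes called at baseline, 4152 (72.2%) were called in the same direction with COH29 and 36 in the opposite one. Of the 924 with at least a 2-fold difference, 891 (96.4%) were called in the same direction and 0 in the opposite one, and 652 were again at least 2-fold apart. All 49 genes low in one line and high in the other kept their direction, each at least 2-fold apart. ZNF667-AS1 differed by 6.89 with COH29, SLC6A14 by -5.47, CD36 by -5.72 and VIM by 3.64. Over all genes the 2 line differences correlated at r = 0.881, a description across genes, which are not independent replicates.

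**Figure D5:**
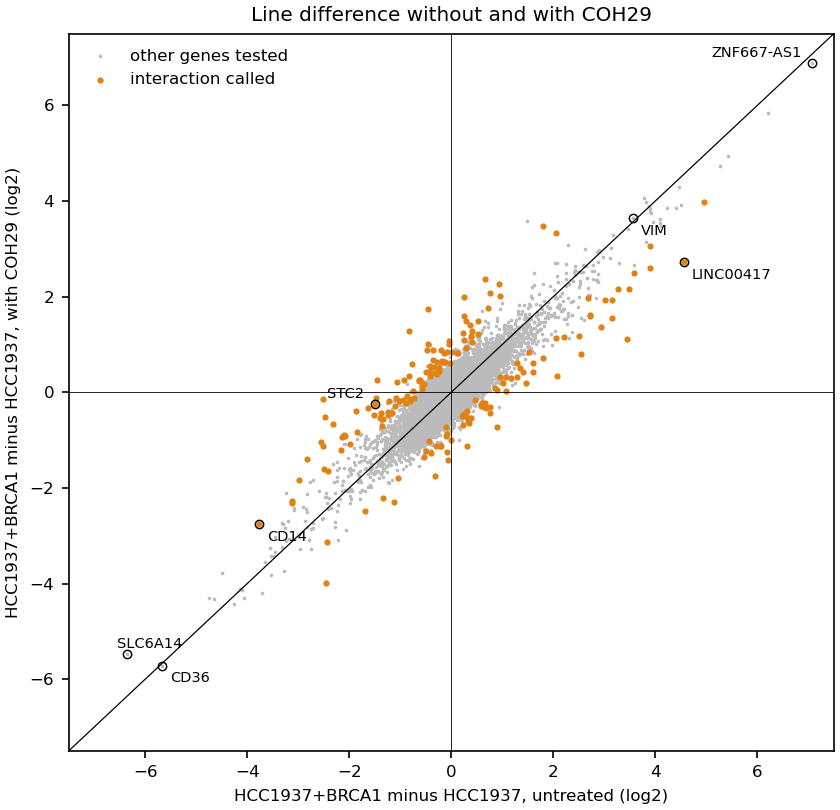
Difference between the lines (HCC1937+BRCA1 minus HCC1937, log2) without COH29 (horizontal axis) and with COH29 (vertical axis) for the 18417 tested genes, 2 arrays per line on each axis, with the line of equal difference. Orange marks the 176 genes whose difference changed with COH29 by the interaction test. Large differences such as ZNF667-AS1 (7.07 and 6.89) and CD36 (-5.67 and -5.72) lie near the diagonal, and LINC00417 (4.56 and 2.72), CD14 (-3.77 and -2.76) and STC2 (-1.50 and -0.25) lie off it.

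With COH29, 46.7% of the genes on chromosome 13 and 43.7% on chromosome 10 were lower. The shares of higher genes with COH29 were 29.7% on chromosome 7, 23.9% on chromosome 18 and 19.4% on chromosome 4, beside 33.1%, 33.7% and 25.1% without it, and the change in these shares was not tested. All 25 stretches had a median of the same sign with COH29. The interaction, the change of the line difference with COH29, was called for 176 genes (0.956%). It was called for 77 of the 924 genes with at least a 2-fold baseline difference, and the line difference was smaller with COH29 in 69 and larger in 8. These genes were chosen for a large baseline difference, which the interaction subtracts, so the choice itself favours a smaller difference with COH29, and nothing is read from that split. LINC00417, a noncoding RNA, differed by 4.56 at baseline and 2.72 with COH29, CD14 by -3.77 and -2.76, and STC2 by -1.50 and -0.25. CXCL1 turned, from 0.91 at baseline to -0.74 with COH29 (interaction adjusted p = 0.00785).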

How the data were processed

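RNA was measured on 8 Affymetrix arrays, 2 in each of 4 groups of line and COH29, grouped by the cell line and treatment labels. The authors deposited 1 table of log2 intensities per probe set. The submitters' processing notes name RMA and Partek without a version or settings, and the log2 values of the arrays are close to 1 shared distribution, with a largest gap between sorted arrays of 0.297. No build is named in the sources used here.

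Of 33297 probe sets, 19460 carry 1 gene name in the platform annotation, 1754 several and 12083 none. The first kind was used, 19429 of them matched RefSeq's gene table, and where a gene had several, the one with the highest average signal on the 8 arrays stood for it, giving a value for each of 18417 genes. No detection filter was set. limma 3.58.1 in R 4.3.3 fitted 1 mean per group over all 8 arrays with moderated variances, and p-values were adjusted by Benjamini-Hochberg over all genes. Python 3.11.15 with pandas 2.3.3 made the tables. The procedure was tested on simulated data.

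Members and gene lists were chosen with earlier results of these data known. Named by rule were marker genes, the 20 largest rises and falls, and, for each list with 3 or more called members, the 4 whose p was smallest. Other names, among them all members given as not called and the genes of chromosome stretches, were chosen after their values were seen. Gene order and chromosomes come from RefSeq. Alternatives were a filter on low genes, 2 other scalings, other variance models, a minimum change, averaging probe sets per gene, a replicate block, the 4 control arrays alone and each array left out.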

Additional observations from a re-analysis of the deposited data

Results flagged for a closer look

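For 18 of the genes named in the text or by the naming rule, the difference between the lines changed with COH29 by limma's interaction test (2 arrays in each of the 4 groups, adjusted over all genes). Each value below is the line difference with COH29 minus that without it, on the log2 scale. Most of these genes were named for their baseline difference, which the interaction subtracts, so the choice favours a smaller difference with COH29. In genes that were higher in the BRCA1 line at baseline the difference shrank by these amounts: LINC00417 had -1.84, ZNF415 -1.31, TDRD12 -0.98, H3C8 -0.97, MMP16 -0.83 and NDRG1 -0.68. CXCL1 had -1.64 and turned from 0.91 to -0.74. MT1X, also higher at baseline, had 1.06 and grew from 0.95 to 2.01.

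In genes that were lower in the BRCA1 line the change was positive. It was 1.00 for CD14, 0.94 for SPDEF, 0.88 for NFKBIZ, 0.80 for MX2 and 0.77 for the endothelial cadherin gene CDH5. The stress genes STC2, ADM and TRIB3 had 1.25, 1.17 and 0.83. SESN2 had 1.46 and turned from -0.46 to 1.01, and NOTCH1 had 0.72 and went from -0.54 to 0.17. TDRD12, LINC00417, ZNF415, MMP16, CD14 and MX2 remained at least 4-fold apart with COH29. The adjusted p of the 18 ran from 0.0031 to 0.0483.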

How the results depend on the processing

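None of the 5749 calls turned direction under any alternative run, but many of the runs could not have turned one. The control arrays of all called genes did not overlap between the lines, so leaving out 1 array cannot change the sign. The other variance models and the minimum change leave the fitted difference as it is. Nothing about direction is read from these runs. A minimum change of 2-fold (limma's treat), which asks for more than a difference from 0, left 397 genes, 217 higher and 180 lower, against 487 and 437 called genes with a fitted difference of that size. Leaving out 1 array at a time gave 3988 to 5751 called genes, 2043 to 3038 higher and 1839 to 2713 lower, and 471 to 524 and 425 to 450 at least 2-fold higher and lower. Of the 924 calls of at least 2-fold, 919 to 924 remained. Where a line kept 1 control array, that array was assumed to vary like the other groups.

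The replicate block gave 5389 called genes, and 5329 of the calls remained. The labels give numbers but no shared source, and same-numbered arrays of the lines deviated at a correlation of -0.105. A crossed block, chosen after seeing the data, gave 6182. Other scalings gave 5798 and 5966, moderation with trend and robust fitting 6427, and no moderation 4584. These and the remaining alternatives kept the counts within 1.5 times.

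Of 756 list counts under 9 alternatives, besides the minimum change and the left-out arrays, 41 moved by more than 1.5 times, 28 of them with under 5 genes in both fits. The other 13 were these. Without genes under the 30th percentile the serpins had 5 lower rather than 9, the chemokines and interleukins 1 higher rather than 5 and the clustered protocadherins 8 higher rather than 15. Without moderation 17 ZNF genes rather than 34, 2 DNA replication genes rather than 5 and 3 mesenchymal genes rather than 5 were lower, and 1 chemokine or interleukin gene rather than 5 and 5 matrix proteases and inhibitors rather than 8 were higher. With trend and robust fitting 21 cytosolic ribosomal protein genes were lower rather than 12 and 8 higher rather than 5, and the EGF family had 5 higher rather than 3. The DNA replication genes had 3 lower with the replicate block and with the 4 control arrays alone. Among the smaller counts, cancer-testis antigens had 1 higher rather than 4 without moderation, and genes of deoxynucleotide supply had 4 lower rather than 2 under cyclic loess, under trend and robust fitting and without the low genes. The cause was not tested. Small differences are limited by 2 arrays a line, with a median standard error of 0.103, and low signals by background.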
